A study of Mus musculus with 3 samples.

Results

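The retinoid pathway was examined in palatal medial edge epithelium, the layer at the tips of the mouse palatal shelves, through 8 genes: the retinoic acid synthesising enzymes Aldh1a1 and Aldh1a2, the cellular binding proteins Crabp1 and Crabp2, and the nuclear receptors Rara, Rarb, Rarg and Rxra. Members were all probe sets that the array's annotation pairs with one of these symbols. That gave 9 of 12422 probe sets other than controls, for 7 of the 8 genes. No probe set carried the symbol Rarb, so its level was not analysed here.

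The tissue came from CF-1 mouse embryos at embryonic day 13.5, and the enzyme Dispase II freed the epithelium in all samples. The first sample was unfused epithelium that had not been cultured (0 h), the second was fused epithelium after 12 h of culture with the shelves in contact, and the third was fused epithelium at 24 h, described as undergoing epithelial-mesenchymal transformation. Each time point had 1 array, so no value has a replicate, an error or a p-value, and the precision is limited by the number of arrays. The shelves were cultured in the 12 h and 24 h samples and not at 0 h, so fusion and culture cannot be told apart. The number of embryos per sample is not stated in the labels.

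Retinoic acid is made from vitamin A by oxidation of retinol to retinaldehyde and of retinaldehyde to the acid, the last step by the Aldh1a enzymes. In the cell it is carried by the Crabp proteins and bound by retinoic acid receptors, which sit on DNA as dimers with a retinoid X receptor such as Rxra and exchange corepressors for coactivators when the ligand arrives. Both an excess and a shortage of retinoids are known to cause cleft palate in mice.

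The classical binding site of these dimers is a direct repeat of a core hexamer with a spacer of 5 bases, called DR5. The hexamer is AGGTCA, with G also allowed as base 1 and T as base 3. The first sequence shows the site of this kind that lies upstream of Rarb, on chr14:16575493-16575549, minus strand, with the hexamers in capitals. The other sequences are the 250 bases before the start of Aldh1a2 (chr9:71215539-71215788, plus strand) and before a start of Aldh1a1 (chr19:20601718-20601967, plus strand), a pair of enzymes of which the second had higher signal after culture by 1 of its 2 probe sets and the first had lower signal. In those, capitals mark the 8-base motif ATGCAAAT, known as the octamer, and in Aldh1a1 also an adjoining hexamer. All were taken from RefSeq promoters of build GRCm38.p6 and are written 5′ to 3′.
Rarb: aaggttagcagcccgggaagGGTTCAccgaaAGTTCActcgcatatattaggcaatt
Aldh1a2: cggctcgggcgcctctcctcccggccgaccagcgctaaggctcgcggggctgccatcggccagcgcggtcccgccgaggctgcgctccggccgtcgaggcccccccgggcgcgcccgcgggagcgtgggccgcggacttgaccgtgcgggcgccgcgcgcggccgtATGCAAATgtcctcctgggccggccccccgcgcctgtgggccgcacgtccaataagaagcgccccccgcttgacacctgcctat
Aldh1a1: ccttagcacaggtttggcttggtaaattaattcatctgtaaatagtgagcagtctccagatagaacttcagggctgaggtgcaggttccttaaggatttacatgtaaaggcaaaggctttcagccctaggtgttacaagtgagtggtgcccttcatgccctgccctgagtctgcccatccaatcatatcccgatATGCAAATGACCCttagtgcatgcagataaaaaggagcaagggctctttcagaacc

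Of the 8 genes, 7 had windows in the table, and Crabp2 was the other. Both strands of the 250 bases before each listed start were searched for DR5, for the repeats with spacers of 1 and 2 bases (DR1 and DR2), for the hexamer alone and for ATGCAAAT. In the 13 windows of these 7 genes, the single repeat found was the DR5 of Rarb, 53 to 37 bases before its start. DR5 occurred in 0.0883% of 32851 windows of this length, DR1 in 0.164% and DR2 in 0.174%. The hexamer alone occurred in 38.6% of windows. Among members it was found at 1 start each of Rara (4 matches), Rxra (3), Rarb (3, with those of the DR5), Rarg (1) and Aldh1a1 (1). The one in Aldh1a1 lies on the opposite strand, 49 to 44 bases before the start, sharing 1 base with ATGCAAAT.

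ATGCAAAT was picked for the search after the sequences had been seen, and it occurred in 1.60% of all windows. It lies 56 to 49 bases before this start of Aldh1a1 and 84 to 77 bases before that of Aldh1a2, on the strand of the gene in both. The other listed start of Aldh1a1 had neither motif. In base composition the windows of the 2 enzymes differed, with 46.4% G or C and 1 CpG for this Aldh1a1 start against 77.6% and 40 CpG for Aldh1a2, beside medians of 52.4% and 6 CpG over all windows. These matches describe the sequence and do not show binding.

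Signals of each array were multiplied to give all arrays 1 common 2% trimmed mean, by factors of 0.676 at 0 h, then 1.09 at 12 h and 1.36 at 24 h. Scaled signals at or below 13.5, the pooled 40th percentile, were set to that floor before ratios were taken. A ratio with 1 array at the floor is a bound, written "at least", and a gene at the floor on both arrays has no ratio. A gene is represented by its brightest probe set, the one of highest mean scaled signal over all arrays. Levels are compared within a probe set, not between probe sets. At least 2-fold is the rule for calling a difference. Ratios of 12 h and of 24 h over 0 h share the 0 h array, so a deviation of that array enters both.

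Control transcripts differed in their 3′ to 5′ signal ratio, a sign of RNA length or amplification. The ratio for Gapdh was 0.828 at 0 h, then 14.9 at 12 h and 12.6 at 24 h, and for Actb 1.02, 11.9 and 2.97 in the same order. Its part in the differences below was not tested. In genes with several probe sets, the log2 ratio of 1 probe set scattered about its gene's mean. The SD was 1.07 over 748 genes for 24 h over 0 h, then 1.24 over 672 genes for 12 h over 0 h and 0.82 over 687 genes for 24 h over 12 h. This spread is the only measure of error these arrays give, and it does not include variation between embryos.

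Against unfused tissue, the cultured seam epithelium gave lower signals for both binding proteins, for Aldh1a2 and for Rarg, and higher signals for Aldh1a1 and Rxra by their brightest probe sets, while their other probe sets differed by less than 2-fold. For 24 h over 0 h, 4 of the 7 genes were 2-fold lower or more and 2 were 2-fold higher or more, while 17.7% and 14.5% of all 6392 genes with a ratio were. For 12 h over 0 h the counts were again 4 lower and 2 higher, with 27.3% and 17.7% over all 6379 genes. The members' median log2 ratio, with bounds taken at their bound, was -1.38 in both comparisons, against -0.08 over all genes for 24 h over 0 h and -0.21 for 12 h over 0 h. Aldh1a2, Rara and Rarg have these ratios only through their signal at 0 h, so for them lower was the only possible direction. For Aldh1a1 and Rxra the cultured arrays decided which probe set was the brightest. At 0 h the other probe set gave more signal, 22.9 against 20.5 for Aldh1a1 and 40.7 against 36.0 for Rxra. The counts, lower and higher, are therefore a description. In such bulk samples, fewer cells that express a gene and less RNA per cell cannot be told apart. Between 24 h and 12 h, 4 members had a ratio and 0 of them differed by 2-fold, beside 18.8% of all genes higher and 12% lower. Their median was 0.31, with 0.17 over all genes.

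For 24 h over 0 h, 6 of 7 members lay further from 0 than 1 SD of the probe set spread, and 5 of 7 did for 12 h over 0 h. Both counts include Aldh1a2 and Rarg, whose ratios are bounds set by their 0 h signal and the floor. They also include Aldh1a1 by its brightest probe set alone, and the count for 24 h over 0 h includes Rxra in the same way. The share of all genes beyond 1 SD was not counted, so these counts do not set the members apart. For all genes, the quartiles of the log2 ratio for 24 h over 0 h were -0.74 and 0.57, within 1 SD. The quartiles for 12 h over 0 h also lay within 1 SD. Beyond 2 SD in both comparisons were Crabp1 and, by its brightest probe set alone, Aldh1a1. The other Aldh1a1 probe set had log2 ratios of -0.36 for 24 h over 0 h and -0.24 for 12 h over 0 h, within 1 SD. For 24 h over 12 h only Rxra, 1 of the 4 with a ratio, lay beyond 1 SD, by its brightest probe set alone.

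**Figure D1:**
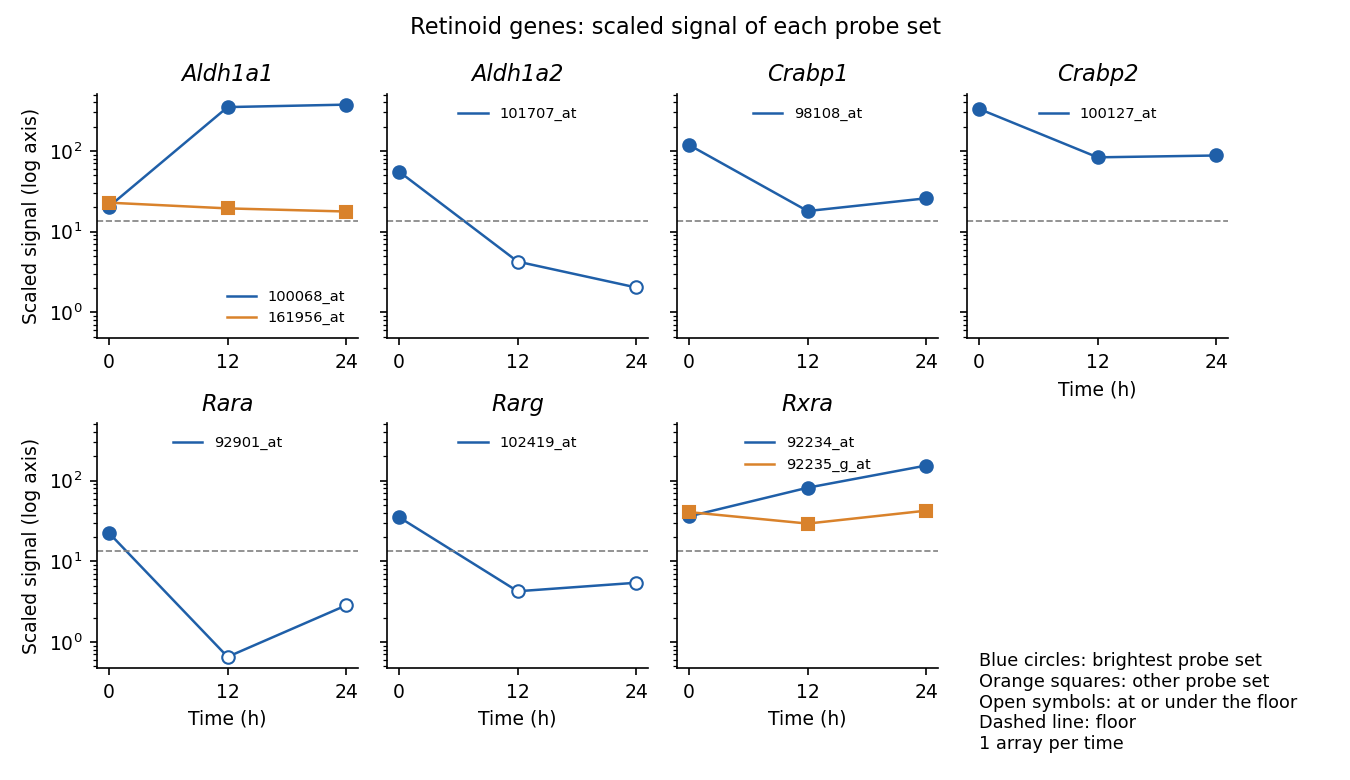
Scaled signal (log axis) of the 9 probe sets of 7 retinoid genes at 0, 12 and 24 h, with 1 array per time. Blue circles are the brightest probe set of a gene, orange squares its other probe set, open symbols lie at or under the floor of 13.5 (dashed line). Aldh1a2, Rara and Rarg are above the floor at 0 h alone, and the 2 probe sets of Aldh1a1 and of Rxra diverge after 0 h.

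Aldh1a1, which oxidises retinaldehyde to retinoic acid and is best known in the dorsal retina and the adult liver, had the highest ratio of the group. Probe set 100068_at gave scaled signals of 20.5 at 0 h, then 350 at 12 h and 375 at 24 h, from deposited signals of 30.3, 320.5 and 276.6. Aldh1a1 was thus 18.3-fold higher at 24 h than at 0 h (log2 4.19) and 17.1-fold higher at 12 h than at 0 h (log2 4.09). Both cultured samples were high and the unfused one lay just above the floor. The log2 ratio of 24 h over 12 h was 0.10, within the probe set spread, and -0.21 with the values as deposited.

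The other Aldh1a1 probe set, 161956_at, did not show this difference. Its scaled signals were 22.9 at 0 h, then 19.4 at 12 h and 17.8 at 24 h, giving log2 ratios of -0.36 for 24 h over 0 h and -0.24 for 12 h over 0 h. The annotation lists accession M74570 for the first probe set and none for the second, so which transcript the second one reads is uncertain. All 3 of its signals were close to the floor.

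Aldh1a7, a mouse gene closely related in sequence to Aldh1a1, also had low signal before culture and high signal after it. Its scaled signal was 12.6 at 0 h, at the floor, 245 at 12 h and 112 at 24 h. Relative to 0 h, the bounds were 8.26-fold higher for 24 h and 18.1-fold higher for 12 h. It was 2.19-fold lower at 24 h than at 12 h, a comparison in which the log2 ratio of Aldh1a1 was 0.10. Probes for one of these genes may also bind the transcript of the other, so their signals are not certain to be separate. Aldh1a3, a further retinaldehyde dehydrogenase, was at the floor at 0 h (8.45) and gave 32.6 at 12 h and 39.2 at 24 h, so that 24 h exceeded 0 h by at least 2.90-fold.

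Aldh1a2, the main source of retinoic acid in the early mouse embryo, had lower signal after culture. Its only probe set, 101707_at, had scaled signals of 55.4 at 0 h, then 4.25 at 12 h and 2.03 at 24 h. Both cultured samples were under the floor, which makes it at least 4.10-fold lower at 24 h and at 12 h than at 0 h. The deposited signals were 82.0, 3.9 and 1.5 in order of time. Between 24 h and 12 h it has no ratio.

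Crabp1 and Crabp2 bind retinoic acid in the cytoplasm. Crabp2 is known to hand the ligand to receptors in the nucleus, and Crabp1 to hold it in the cytosol. Crabp1 had scaled signals of 119 at 0 h, then 18.0 at 12 h and 25.9 at 24 h, and Crabp2 had 332, 83.3 and 87.9. Crabp1 was 4.58-fold lower at 24 h than at 0 h (log2 -2.19) and 6.59-fold lower at 12 h (log2 -2.72). Crabp2 was 3.78-fold lower at 24 h than at 0 h (log2 -1.92) and 3.98-fold lower at 12 h (log2 -1.99). For both, the unfused sample was high and the cultured samples were low. The log2 ratios of 24 h over 12 h were 0.52 for Crabp1 and 0.08 for Crabp2, within the probe set spread. With the values as deposited they were 0.21 and -0.24.

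Rara and Rarg encode retinoic acid receptors, Rarg being the one typical of skin and other stratified epithelia. Rarg had scaled signals of 35.2 at 0 h, then 4.25 at 12 h and 5.42 at 24 h, and Rara had 22.4, 0.65 and 2.85. Only the unfused sample was above the floor for either. Rarg was at least 2.60-fold lower at 24 h and at 12 h than at 0 h. The bound for Rara was 1.65-fold lower in both comparisons, short of 2-fold, because its signal at 0 h was near the floor.

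Rxra, the dimer partner of these and many other nuclear receptors, had a higher signal at 12 h than at 0 h and again at 24 h than at 12 h by its brightest probe set. Probe set 92234_at gave scaled signals of 36.0 at 0 h, then 81.7 at 12 h and 154 at 24 h. Rxra was 4.27-fold higher at 24 h than at 0 h (log2 2.09), 2.27-fold higher at 12 h than at 0 h (log2 1.18) and 1.88-fold higher at 24 h than at 12 h (log2 0.91). The second of these ratios lies within the probe set spread.

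The probe set 92235_g_at, made from the same accession, X66223, gave 40.7 at 0 h, then 29.3 at 12 h and 42.4 at 24 h. Its log2 ratios were 0.06 for 24 h over 0 h, -0.47 for 12 h over 0 h and 0.53 for 24 h over 12 h. The 2 probe sets of Rxra thus agreed in direction for the step from 12 h to 24 h and disagreed about the level after culture relative to 0 h. Their log2 ratios differed by 2.03 for 24 h over 0 h. Of 117 pairs of probe sets that share an accession, 12.0% differed by that much or more, and the median pair differed by 0.76. For 12 h over 0 h the difference was 1.65, and 24.8% of 113 pairs differed by as much.

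**Figure D2:**
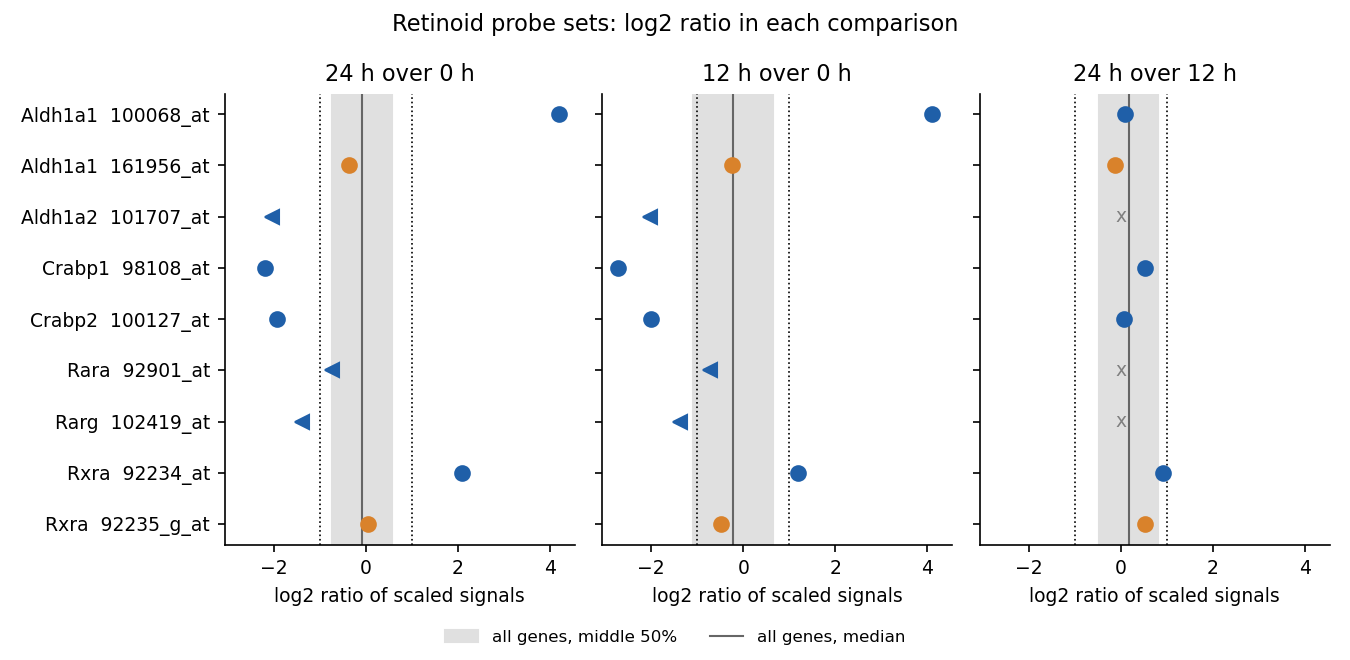
Log2 ratios of scaled signals for the 9 retinoid probe sets in 3 comparisons. Circles are measured on both arrays, triangles are bounds pointing towards the true ratio, crosses have both arrays at the floor, blue is a gene's brightest probe set and orange its other one. The grey band is the middle 50% of all genes, the grey line their median and the dotted lines mark 2-fold. Crabp1, Crabp2 and Aldh1a2 lie near or below -2 against 0 h, and 100068_at of Aldh1a1 lies above 4.

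Genes that act before and after retinoic acid were taken from lists. Of 32 listed genes of retinol transport, storage and metabolism, 20 had a probe set and 16 a ratio for 24 h over 0 h. Of these 16, 6 were at least 2-fold higher and 2 lower, with a median log2 ratio of 0.18, beside 14.5% higher and 17.7% lower over all genes. The 6 include Aldh1a7, Rbp4, Aldh1a3 and Lpl, which were at the floor at 0 h. The lower genes, Dgat1 and Cyp26a1, were at the floor at both later times. Ratios of these genes over 0 h are bounds with only 1 possible direction, so the counts are a description. For 12 h over 0 h, 6 of 15 were higher and 3 lower, beside 17.7% and 27.3%, and for 24 h over 12 h 2 of 12 were higher and 3 lower, beside 18.8% and 12%. With the values as deposited the balance turned in both comparisons with 0 h. There 3 of 16 were higher and 7 lower for 24 h over 0 h, and 4 of 16 were higher and 5 lower for 12 h over 0 h. All genes shifted lower in that setting too, with 296 of 6574 higher and 3244 (49.3%) lower for 24 h over 0 h. For 12 h over 0 h these were 603 of 6658 higher and 2984 (44.8%) lower. One of the 6, Adh5, an alcohol dehydrogenase named here after its values had been seen, was 2.02-fold higher at 24 h than at 0 h by its brightest probe set. Its other probe set had 472 at 0 h, then 279 at 12 h and 130 at 24 h, a log2 ratio of -1.85 for 24 h over 0 h. Besides Aldh1a7 and Aldh1a3, Rbp4, which carries retinol in blood, was at the floor at 0 h (3.11) and reached 58.2 at 12 h and 51.7 at 24 h. The bounds over 0 h were 3.82-fold higher for 24 h and 4.31-fold higher for 12 h. Lpl, a lipase that helps release retinol from blood lipids, was at the floor at 0 h (6.83) and gave 127 at 12 h and 30.9 at 24 h.

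The lower genes of this list included enzymes that store or remove retinoids. Dgat1, which can esterify retinol for storage, had 62.7 at 0 h and was at the floor afterwards, at least 4.63-fold lower at 24 h and at 12 h. Cyp26a1, which degrades retinoic acid and is itself induced by it, had 33.5 at 0 h, then 10.9 at 12 h and 3.25 at 24 h, at least 2.48-fold lower at both later times. Dhrs3, which reduces retinaldehyde back to retinol, had 40.2 at 0 h, then 14.0 at 12 h and 39.7 at 24 h. Only its 12 h sample was low, and it was 2.85-fold higher at 24 h than at 12 h. Adh1, a retinol-oxidising alcohol dehydrogenase, had 19.0 at 0 h, 29.2 at 12 h and 5.83, under the floor, at 24 h.

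Of the other RXR genes and receptors that pair with RXR, 8 of 15 had a ratio. None of the 8 was at least 2-fold higher than at 0 h (0 of 8 at either later time), and 1 was lower at 24 h and 2 at 12 h. These counts stand beside 14.5% higher and 17.7% lower over all genes for 24 h over 0 h, and 17.7% and 27.3% for 12 h over 0 h, and with 8 genes they do not set the list apart. Nr4a1, an orphan receptor of immediate early type, had 336 at 0 h, then 67.3 at 12 h and 122 at 24 h, 2.75-fold lower at 24 h and 5.00-fold lower at 12 h than at 0 h. Thra, a thyroid hormone receptor, had 241 at 0 h, then 104 at 12 h and 302 at 24 h, low at 12 h alone, although its other, dimmer probe set had 10.9, 18.3 and 27.1 in order of time. Rxrb, named here after its values had been seen because it is another RXR gene, had 356 at 0 h, then 178 at 12 h and 299 at 24 h. Its log2 ratio was -0.25 for 24 h over 0 h and -0.998 for 12 h over 0 h. In the same order the brightest Rxra probe set had 2.09 and 1.18, and the other Rxra probe set 0.06 and -0.47.

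Corepressors and coactivators of nuclear receptors leaned lower against 0 h, as did all genes. Of 16 with a ratio, 5 passed 2-fold as lower and 1 as higher at 24 h, and 8 lower and 3 higher at 12 h, with medians of -0.68 and -0.94. Over all genes 17.7% were lower and 14.5% higher at 24 h, and 27.3% lower and 17.7% higher at 12 h. After median centring, where the balance of all genes turned upward, 3 of the 16 were lower and 2 higher at 24 h, and 5 lower and 3 higher at 12 h. All genes after median centring were 14.2% lower and 17.7% higher at 24 h, and 18.4% lower and 26.2% higher at 12 h. For 24 h over 12 h, in the main setting, 3 of 14 were higher and 2 lower, beside 18.8% and 12% of all genes. Prmt1, an arginine methyltransferase, had 421 at 0 h, then 24.3 at 12 h and 22.0 at 24 h, 19.2-fold lower at 24 h than at 0 h. Smarca4, the motor of chromatin remodelling complexes, had 376, 48.5 and 120 in the same order, and Med1, a Mediator subunit that binds receptors, had 86.9, 16.1 and 22.9. In contrast Kat2b, an acetyltransferase, had 28.9 at 0 h, then 198 at 12 h and 211 at 24 h, 7.29-fold higher at 24 h than at 0 h. Its other probe set was at the floor on all 3 arrays. Hdac3, the deacetylase of the corepressor complex, had 80.1 at 0 h, then 15.4 at 12 h and 41.9 at 24 h, low at 12 h alone by the 2-fold rule, and so was Sin3a, a scaffold of corepressor complexes, with 182 at 0 h, then 71.8 at 12 h and 172 at 24 h. Nr2f2, an orphan nuclear receptor, had 61.3 at 0 h, then 85.7 at 12 h and 29.0 at 24 h, 2.96-fold lower at 24 h than at 12 h. The other probe sets of Smarca4, Nr2f2, Dgat1 and Lpl were also at the floor on all 3 arrays.

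Genes known to respond to retinoic acid included both higher and lower ones. Of 24 with a ratio, 5 were at least 2-fold higher and 2 lower for 24 h over 0 h, with a median log2 ratio of 0.10, beside 14.5% higher and 17.7% lower over all genes. For 12 h over 0 h, 7 were higher and 7 lower, beside 17.7% and 27.3% of all genes, the lower share being near that of all genes. For 24 h over 12 h 5 of 23 were higher and 3 lower, beside 18.8% and 12%. With the values as deposited, 1 of 24 was higher and 9 were lower for 24 h over 0 h. Of all 6574 genes with a ratio in that setting, 296 were higher and 3244 (49.3%) lower. Besides Cyp26a1, the lower ones at 12 h included Mdk, a retinoic acid inducible growth factor, with 1594 at 0 h, then 244 at 12 h and 1046 at 24 h. Bhlhe40, first cloned as a retinoic acid induced transcription factor, was at the floor at 0 h (9.60) and had 31.1 at 12 h and 92.6 at 24 h, a bound of 6.85-fold higher for 24 h over 0 h. Hoxb5, a homeobox gene, had 20.7, 47.2 and 53.0 in order of time, 2.56-fold higher at 24 h than at 0 h. Tfap2c, a transcription factor of surface ectoderm, had 104, 206 and 262, 2.53-fold higher at 24 h than at 0 h. Foxa2 was above the floor at 12 h (49.7) and 24 h (14.6) and at the floor at 0 h. Lamb1, a laminin chain, had 90.5 at 0 h, then 258 at 12 h and 82.7 at 24 h, 3.12-fold lower at 24 h than at 12 h and 2.85-fold higher at 12 h than at 0 h. Its other probe set had 63.7, 148 and 132 in the same order, without the low 24 h value.

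**Figure D3:**
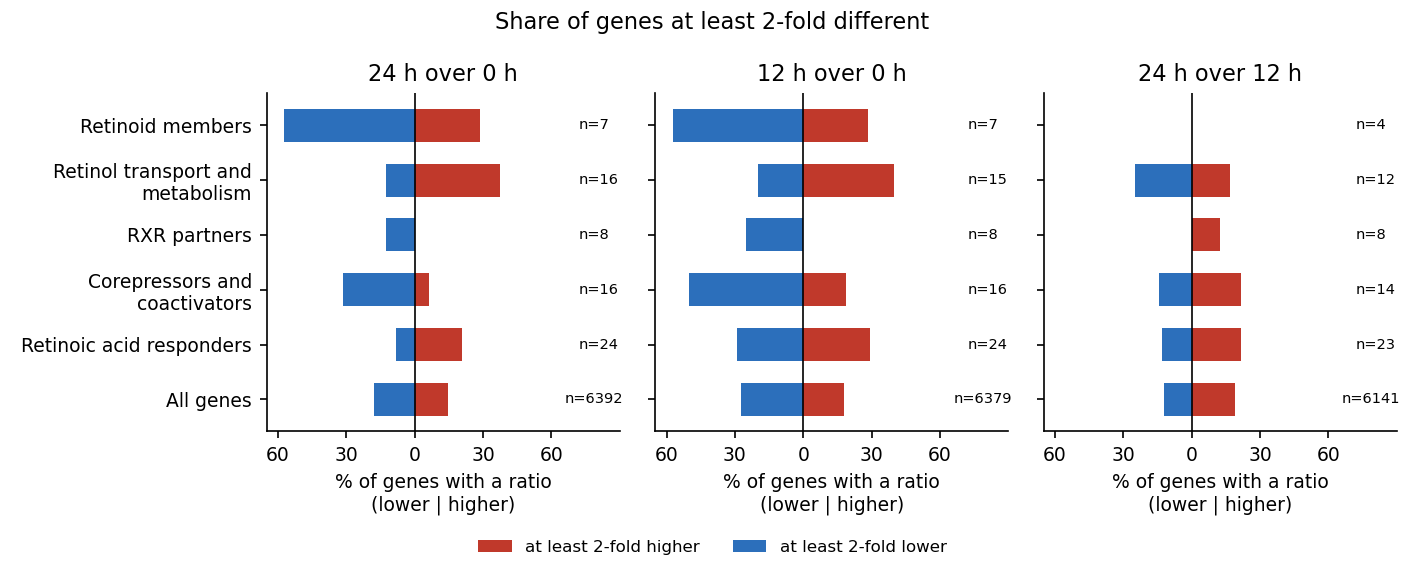
Share of genes at least 2-fold higher (red, right) or lower (blue, left) among genes with a ratio, for the retinoid members, 4 pathway lists and all genes, in 3 comparisons. The number of genes with a ratio stands at the right. The members hold 57.1% lower and 28.6% higher genes against 0 h, from 7 genes.

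Markers of the cells in the samples were read on the same arrays. Of 22 epithelial markers, 17 were above the floor at 0 h, then 12 at 12 h and 16 at 24 h, with summed scaled signals of 1532, 2495 and 2423. A few bright genes weigh most in such sums. For 12 h over 0 h the median log2 ratio of the epithelial markers was -0.66, with 4 of 18 at least 2-fold higher, among them Epcam and the desmosome gene Dsp, and 4 lower, among them the tight junction gene Cldn4, at least 15.2-fold. For 24 h over 0 h the median was 0.63, with 5 of 17 higher and 1 lower. The basal keratins Krt5, Krt14 and Krt15 were at the floor on all 3 arrays, while Cdh1, Epcam and Trp63 were above it on each. Of 26 palate mesenchyme markers, 24, 21 and 23 were above the floor at 0, 12 and 24 h, with sums of 7636, 13036 and 13832, so the samples also held signal of mesenchymal genes. Their median log2 ratio was 0.17 for 12 h over 0 h, with 9 of 26 higher and 8 lower, and 0.27 for 24 h over 0 h, with 8 higher and 6 lower. Beside these epithelial and mesenchyme counts, 17.7% of all genes were higher and 27.3% lower for 12 h over 0 h, and 14.5% and 17.7% for 24 h over 0 h. The collagen gene Col1a2 was 11.1-fold higher at 24 h than at 0 h, while at 12 h the matrix gene Mfap2 was 37.8-fold lower than at 0 h and the transcription factor genes Prrx2 and Twist2 were lower by log2 ratios of -4.32 and -3.59. Erythroid markers summed to 6526 at 0 h, then 1628 at 12 h and 1564 at 24 h, and 8, 7 and 7 of 9 were above the floor. Leukocyte markers summed to 380, 409 and 775, with Ptprc and Adgre1 at the floor throughout, and 8, 10 and 10 of 16 above it. Endothelial sums were 439, 655 and 663 with 8, 8 and 7 of 10 above it, and neural and muscle sums 1383, 1391 and 1205 with 12, 11 and 11 of 16 above it. The part of these markers in the retinoid differences was not tested.

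The genes whose time course was nearest to that of a member were sought among 4678 genes above the floor on all 3 arrays, by the distance between log2 signals centred on their mean over the 3 arrays. For Aldh1a1 the nearest were Ppp3ca, a calcineurin subunit, at a distance of 0.35, then Slc31a1 and Cxcl1 at 0.43 each, and 0 genes lay within 0.25. Within 0.25 of Rxra lay 22 genes, led by Tmem38b, Ccdc80 and Scin, within 0.25 of Crabp2 42 genes, led by Shmt1, Lsm2 and Fdft1, and within 0.25 of Crabp1 12 genes, led by Nelfa, Igf1r and Wdr6. Each gene was taken by its brightest probe set, and the other probe sets of Aldh1a1 and Rxra had different time courses. With 3 arrays such likeness is a description alone.

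**Figure D4:**
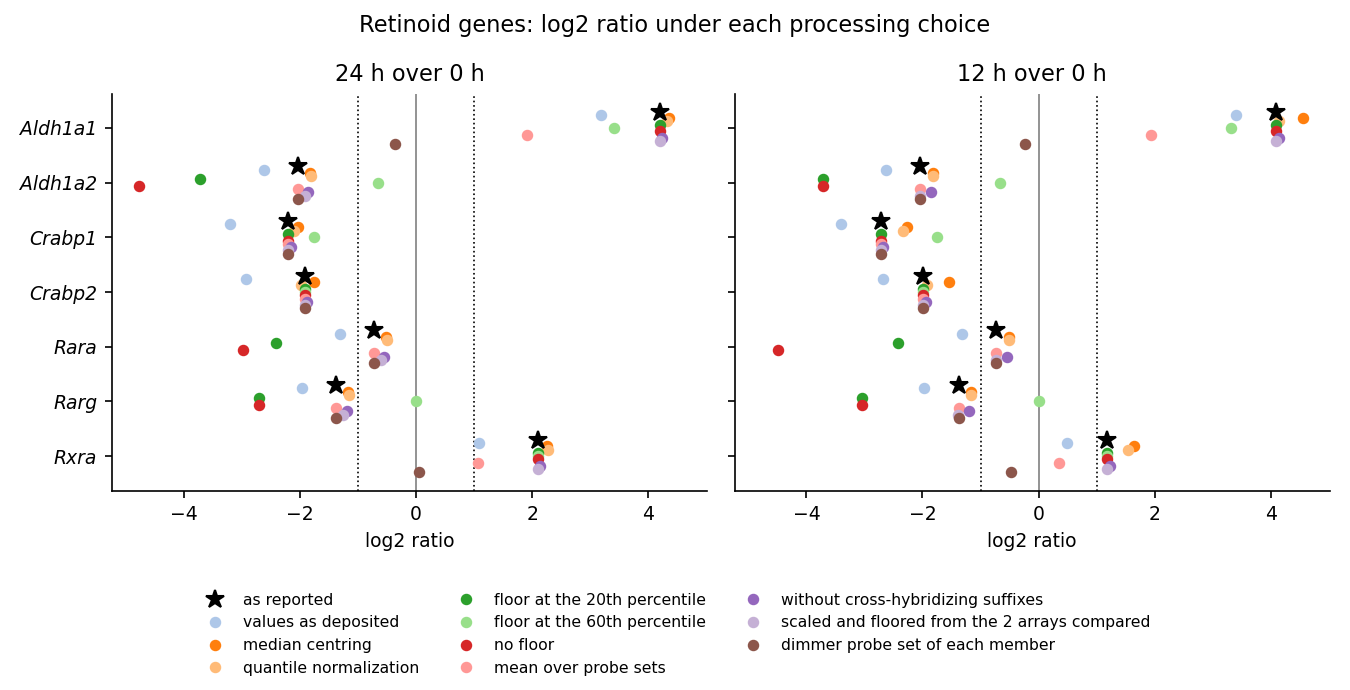
Log2 ratios of the 7 retinoid genes for 24 h over 0 h and 12 h over 0 h under each processing choice. Black stars are the values as reported, coloured dots the alternatives, and dotted lines mark 2-fold. Crabp1 and Crabp2 lie below -1 under every choice shown, Rarg and Aldh1a2 depend on the floor, and Aldh1a1 and Rxra depend on the probe set.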

How the data were processed

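The deposited values are signal intensities, 1 linear value per probe set and array, never negative. Per the labels, RNA was amplified with the RiboAmp kit, labelled with an ENZO kit and measured on Affymetrix arrays, and Microarray Suite 5.0 and GeneSpring 6.0 were used. Which program wrote the values, and whether they were scaled, is not stated in the labels. Their 2% trimmed means were 93.7, 58.1 and 46.8 at 0, 12 and 24 h.

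Of 12488 probe sets, 66 controls were left out of scaling. Of the rest, 10833 name 1 gene, 396 several and 1193 none, and 10817 of the 10833 were matched by gene identifier to RefSeq symbols (GRCm38.p6), giving 8251 genes. Calculations used Python 3.11.15, numpy 2.4.6, pandas 2.3.3 and scipy 1.17.1, and were tested on simulated data. The main steps stand in the results. Alternatives were 3 other scalings, 3 other floors, the mean over probe sets, removal of suffixes that mark cross-hybridization and a 3-fold rule. Scaling from the 2 arrays compared, and the dimmer probe set, were added after seeing the data.

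Beyond the members, the text names the 4 genes of each pathway list with the largest ratios of at least 2-fold in a comparison, where there are as many, and fewer from marker lists. It also names the 3 nearest time courses. Members and lists were chosen with earlier results of these data known.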

Additional observations from a re-analysis of the deposited data

How the results depend on the processing

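Counts moved by over 1.5 times, and medians by more than the probe set spread, only in the following cases. The count of members at least 2-fold higher for 12 h over 0 h, 2 as reported, was 1 with the values as deposited, 1 with the mean over probe sets, 1 under the 3-fold rule and 0 with the dimmer probe set. For 24 h over 0 h it was 0 with the dimmer probe set. With a floor at the 60th percentile the count of lower members was 2 in both comparisons with 0 h, since Aldh1a2 and Rarg at 0 h then lay close to that floor. Without a floor the members' median for 12 h over 0 h was -2.72, and 1 member was higher and 1 lower for 24 h over 12 h. Directions reversed for the dimmer probe set of Aldh1a1 (log2 -0.36 for 24 h over 0 h and -0.24 for 12 h over 0 h) and of Rxra (-0.47 for 12 h over 0 h); the cause was not tested. The other 86 counts and medians kept within those limits. Of the members' single-gene values under alternatives, 155 of 177 stayed within the spread, 19 moved by more and 3 reversed. Of other named genes, 836 of 883 values under alternatives stayed within the spread. Among their ratios of at least 2-fold, 5 of 613 values changed sign, all of Adh5, whose other probe set is then used or averaged in. Its log2 ratios were -2.86 for 24 h over 0 h and -1.44 for 12 h over 0 h with the values as deposited, -2.07 and -1.06 after quantile normalization, and -0.42 for 24 h over 0 h with the mean over probe sets. Among smaller ratios 24 of 270 changed sign, for example Thra for 24 h over 0 h, with 0.32 as reported and -0.68 with the values as deposited, and 7 of 57 did among members, in Aldh1a1 and Crabp2 for 24 h over 12 h.

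Among all genes the scaling sets what counts as higher. The share of 2-fold differences that were upward was 45.0% for 24 h over 0 h, 39.3% for 12 h over 0 h and 61.1% for 24 h over 12 h. It was 8.36%, 16.8% and 39.4% with the values as deposited, 55.5%, 58.7% and 42.1% after median centring, and 51.1%, 51.1% and 50.9% after quantile normalization. The median over all genes was -0.98, -0.83 and -0.12 as deposited and 0.08, 0.18 and -0.09 after median centring. With the values as deposited, members counted 2 higher and 5 lower for 24 h over 0 h, and 1 higher and 5 lower for 12 h over 0 h. Of all genes in that setting, 296 of 6574 were higher and 3244 (49.3%) lower for 24 h over 0 h. For 12 h over 0 h, 603 of 6658 were higher and 2984 (44.8%) lower. No paired analysis was possible because each time point has 1 array. Signals near the floor limit Rara, Rarg and Aldh1a2 to bounds.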
